A study of Homo sapiens with 12 samples.

Results

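The genes described here build the route by which human cells move proteins into and out of the endoplasmic reticulum (ER). They were taken by symbol from the array's probe-to-gene table: names beginning with SEC and a digit, the SSR, SRP, SPCS and TMED families, the COPI coat subunits and SAR1. Of 19775 genes with a probe set of their own, 62 matched. The rule is a rule on names, so it also took 4 SEC14-like genes, 2 pseudogenes (SEC14L1P1 and SEC1P) and 2 non-coding transcripts (SEC24B-AS1 and SEC61G-DT). Of the 62 genes, 55 were bright enough to test. The other 7, SEC31B, COPZ2, TMED6, SEC14L3, SEC14L4, SEC14L1P1 and SEC1P, fell below the filter on dim genes, a mean signal of 10.2, and were not tested.

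Proteins bound for secretion or for membranes are recognised by their signal sequence as they leave the ribosome, by the signal recognition particle. They pass through the SEC61 channel with the translocon-associated TRAP complex beside it, and signal peptidase then cuts the signal sequence off. Folded cargo leaves the ER in vesicles coated by COPII, and vesicles coated by COPI return receptors and escaped ER proteins from the Golgi. Goblet-type intestinal cells, which secrete mucin, depend heavily on this route.

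The study used Ls174T, a human colorectal carcinoma line, on Affymetrix U133 Plus 2.0 arrays, with 3 arrays in each of 4 groups. Ls174T-pTER-β-catenin cells carry a doxycycline-inducible short hairpin RNA (shRNA) against β-catenin and were profiled without doxycycline or after 72 h with it. Ls174T-L8 cells carry inducible dominant-negative Tcf4, which blocks the transcription factors that β-catenin activates, and were profiled without doxycycline or after 24 h with it. All 4 groups share the parent line, and each induction was compared with the uninduced cells of its own line, so the 2 inductions share no array. Arrays of doxycycline-treated cells that carry neither construct were not used here, so an effect of the inducer cannot be told apart from that of the construct. Nor do the labels say whether the lines are single clones or whether the replicates were separate cultures, so the p-values measure the spread between these arrays, which may be technical.

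The targeted genes moved as labelled: the brightest CTNNB1 (β-catenin) probe set fell from a geometric mean signal of 3780 to 155 with the shRNA, and 2 TCF7L2 (Tcf4) probe sets rose 11.6-fold and 7.55-fold with the dominant-negative construct. Arrays of one group correlated at 0.958 to 0.969 over the probe sets at or above the filter on dim genes. All 10 intestinal epithelial markers looked for were bright enough to test. Of these, 7 rose in the shRNA line and 5 in the Tcf4 line, and none fell. Their summed signal was 16200 to 18700 on the uninduced and 33100 to 38300 on the induced shRNA arrays, and 22800 to 25600 and 29700 to 32700 on those of the Tcf4 line. The summed signal of 4 leukocyte markers stayed between 24.8 and 46.4 on all arrays, and LCP1, the only one tested, rose with the shRNA (2.87-fold, adjusted p = 0.0335). That of 6 fibroblast markers was 88.2 to 114 and then 91.1 to 152 in the shRNA line, and 105 to 138 and then 177 to 204, without overlap, in the Tcf4 line. Of the 4 fibroblast markers tested 1 rose in each induction and none fell, LUM, by 3.83-fold (adjusted p = 0.00282) and 4.55-fold (adjusted p = 0.00107). The sum of 4 endothelial markers lay between 23.1 and 64.8, and the 1 tested did not pass. The part of these markers in the results below was not tested.

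In both inductions, more of these genes rose than fell. With the shRNA, 21 of the 55 tested genes rose (38.2%) and 4 fell (7.27%), at an adjusted p under 0.05 over all genes tested. Over all 12386 genes, 34.0% changed, 16.6% upward and 17.4% downward. With dominant-negative Tcf4, 26 rose (47.3%) and 1 fell (1.82%), where 36.0% of all genes changed, 16.0% upward and 20.0% downward. Each array averages a culture, so less RNA per cell and fewer cells that express a gene cannot be told apart. The median log2 change was 0.20 in the first induction and 0.29 in the second, against 0.02 and -0.05 over all genes. Secretory genes are bright, and bright genes pass the test more often: above a stricter filter, the 75th percentile of probe sets, 42.9% of the remaining 49 genes rose with the shRNA and 55.1% in the Tcf4 line, against 22.0% and 20.7% of all genes there. With each array centred on its own median, 12 rose and 4 fell with the shRNA, while 17 rose and none fell with dominant-negative Tcf4. Over all 12386 genes, 1481 and 1693 then rose. The 9 rises lost with the shRNA were those of COPB2, SAR1B, SEC13, SEC61B, SSR1, SSR2, SSR3, TMED4 and TMED10, and the 9 lost with dominant-negative Tcf4 were those of COPE, SEC13, SEC24B, SEC24C, SEC61B, SPCS2, SSR1, TMED2 and TMED4.

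Rising in both inductions were 17 genes, which is 81.0% of those that rose with the shRNA and 65.4% of those that rose in the Tcf4 line. Over all genes the same shares were 50.6% and 52.5%. On the brightest probe sets, no gene fell in both, 2 (SEC24C and SPCS2) passed in opposite directions, and 22 passed in neither. The rise was spread over the arrays. The median deviation of the 55 genes from their uninduced mean was 0.24, 0.24 and 0.16 on the 3 shRNA-induced arrays and 0.28, 0.33 and 0.24 on the 3 induced arrays of the Tcf4 line.

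**Figure D1:**
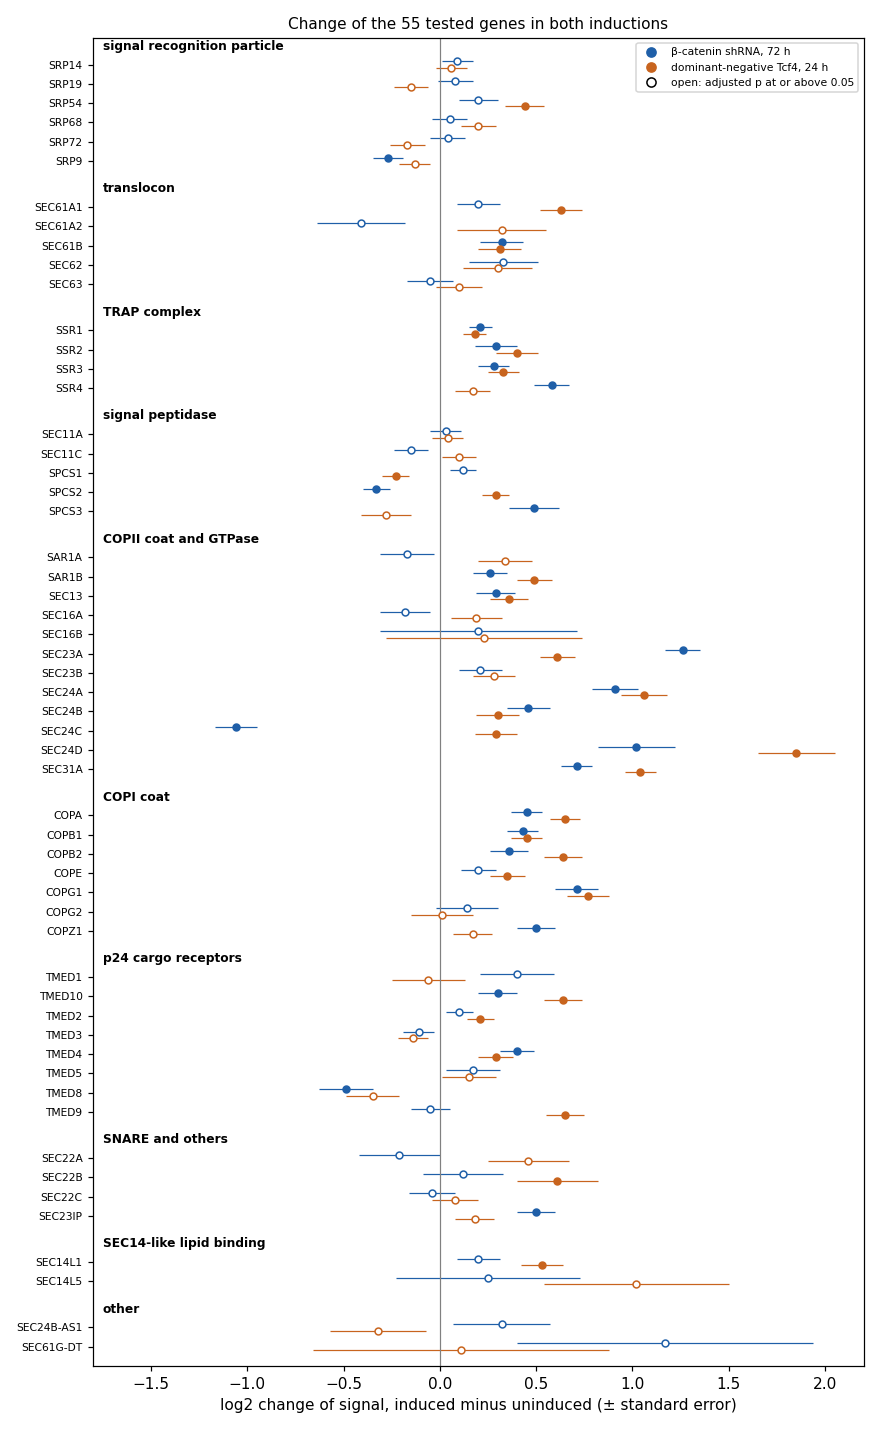
Log2 change of signal (induced minus uninduced, x axis, ± standard error, 3 arrays per group) for the 55 tested genes grouped by role, with the shRNA at 72 h in blue and dominant-negative Tcf4 at 24 h in orange; filled points have an adjusted p under 0.05. Most filled points lie right of 0, the COPII genes span -1.06 to 1.26 with the shRNA, and all 7 COPI genes lie right of 0.

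The COPII coat held the largest called change in each direction with the shRNA and the largest rise with dominant-negative Tcf4. Its members are the GTPase SAR1, which starts the coat, the inner layer of SEC23 and SEC24 that binds cargo, the outer cage of SEC13 and SEC31, and the scaffold SEC16 that marks ER exit sites. Of 12 tested, 7 rose and 1 fell with the shRNA, and 8 rose and none fell with dominant-negative Tcf4. With arrays centred on their medians 5 rose in each induction and 1 fell with the shRNA. SEC23A, one of the SEC23 forms, which make SAR1 hydrolyse GTP, was measured by probe set 212887_at. It gave signals of 701, 731 and 899 on the uninduced shRNA arrays and 1874, 1922 and 1752 after 72 h. For the Tcf4 line it gave 987, 1061 and 1015 uninduced and 1672, 1471 and 1524 after 24 h. In each line every induced array lay above every uninduced one. The log2 rise was 1.26 ± 0.09 (SE, adjusted p = 3.76e-08) with the shRNA and 0.61 ± 0.09 (adjusted p = 9.82e-05) with dominant-negative Tcf4.

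SEC24, which has 4 forms in human cells with partly different cargo, has forms that changed in opposite directions. SEC24D (202375_at) had signals of 264, 269 and 162 on uninduced shRNA arrays and 490, 491 and 396 on induced ones. For the Tcf4 line the SEC24D values were 154, 96.2 and 144 uninduced and 466, 419 and 518 induced. Both lines ended near the same level, from a lower start in the Tcf4 line, and neither pair of groups overlapped. SEC24D rose 2.02-fold with the shRNA (log2 1.02 ± 0.20, adjusted p = 6.54e-04) and 3.61-fold with dominant-negative Tcf4 (1.85 ± 0.20, adjusted p = 1.98e-06). SEC24A (212900_at) went from 198, 203 and 234 to 398, 430 and 362 with the shRNA. With dominant-negative Tcf4 it went from 233, 228 and 214 to 538, 453 and 423. The uninduced groups of the 2 lines overlapped, and SEC24A rose without overlap in each line, by 0.91 ± 0.12 (adjusted p = 1.36e-05) and 1.06 ± 0.12 (adjusted p = 2.96e-06). A second SEC24A probe set, 212902_at, rose by 0.64 (adjusted p = 0.00117) and 1.29 (adjusted p = 1.78e-06), was lower in the uninduced Tcf4 line (-0.74, adjusted p = 3.03e-04) and passed for the difference between the inductions (-0.64, adjusted p = 0.0273), which the brightest did not. SEC24B rose less, by 0.46 (adjusted p = 0.00367) and 0.30 (adjusted p = 0.0414), and the second of these calls was lost without any one of 5 arrays (values 0.26 to 0.30): induced arrays 1 and 2 and uninduced arrays 1 and 2 of the Tcf4 line, and uninduced array 2 of the shRNA line.

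SEC24C went the other way with the shRNA. Its probe set, 202361_at, read 472, 523 and 478 uninduced and 221, 265 and 221 after 72 h. For dominant-negative Tcf4 it read 394, 412 and 371 uninduced and 432, 478 and 535 after 24 h. All shRNA-induced arrays were below all others, and those of the Tcf4 line after induction were above their own controls. The fall was -1.06 ± 0.11 on the log2 scale (2.09-fold lower, adjusted p = 1.28e-06), and the rise with dominant-negative Tcf4 was 0.29 ± 0.11 (adjusted p = 0.0468). That rise lost its call without any one of 7 arrays (0.21 to 0.33): induced arrays 2 and 3 and all uninduced arrays of the Tcf4 line, and uninduced arrays 1 and 2 of the shRNA line. SEC24C has 1 probe set on the array, so no other probe set bears on it.

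SEC31A (200945_s_at), of the outer cage, read 786, 837 and 756 on uninduced shRNA arrays and 1267, 1340 and 1285 on induced ones. In the Tcf4 line SEC31A read 498, 472 and 529 before and 1027, 987 and 1060 after induction. The arrays of each group lay close together and far from the other group, with rises of 0.71 ± 0.08 (adjusted p = 3.90e-06) and 1.04 ± 0.08 (adjusted p = 7.17e-08). Its cage partner SEC13 rose by 0.29 (adjusted p = 0.0369) and 0.36 (adjusted p = 0.0107). The GTPase SAR1B rose by 0.26 (adjusted p = 0.0403) and 0.49 (adjusted p = 5.23e-04). With the shRNA, the SEC13 call was lost without any one array of that line but uninduced array 1 (0.21 to 0.32), and the SAR1B call without any one array of that line or uninduced array 3 of the Tcf4 line (0.22 to 0.28). The SEC13 call with dominant-negative Tcf4 was lost without induced array 2 (0.26) or uninduced array 3 (0.27). Other SAR1B probe sets, each fitted by itself, also rose with the shRNA. They were 1554482_a_at (0.35, adjusted p = 0.012), 226742_at (0.70, adjusted p = 0.00337) and 223512_at (0.47, adjusted p = 0.0452). Of these, only 1554482_a_at rose with dominant-negative Tcf4 (0.55, adjusted p = 4.15e-04). The dimmest SAR1B probe set, 230397_at, passed in neither.

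On their brightest probe sets, the other 4 COPII genes passed in neither induction. SEC23B, the SEC23 paralogue, had log2 changes of 0.21 (adjusted p = 0.165) and 0.28 (adjusted p = 0.0514). Its 2 other probe sets, each fitted by itself, passed in both: 201583_s_at with 0.34 (adjusted p = 0.00547) and 0.37 (adjusted p = 0.00288), and 201582_at with 0.35 (adjusted p = 0.0285) and 0.46 (adjusted p = 0.00527). SEC16A had -0.18 and 0.19. For SEC16B the changes were 0.20 and 0.23, each ± 0.51. SAR1A, the other SAR1 form, had -0.17 (adjusted p = 0.414) and 0.34 (adjusted p = 0.0795) on its brightest probe set, 201543_s_at, but its probe sets disagreed. When every probe set was fitted by itself, 201542_at fell by 1.66 with the shRNA (adjusted p = 8.04e-08) and 210790_s_at fell by 0.64 (adjusted p = 0.0142). With dominant-negative Tcf4, 201542_at did not pass (0.13, adjusted p = 0.498), while 210790_s_at rose by 0.67 (adjusted p = 0.00999) and so passed in opposite directions. The change of SAR1A thus depends on which probe set stands for it. On the brightest probe sets, the gap between the highest and the lowest changing SEC24 form was 2.08 log2 units in the shRNA induction and 1.56 in the other. Between SEC23A and SEC23B it was 1.05 and 0.33. The SEC16, SEC22, SEC61A, SEC11, COPB and COPG groups had gaps of 0.76 or less. The SAR1 gap is 0.43 and 0.15 on the brightest probe sets, but is wider with the shRNA on the SAR1A probe sets that fell.

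**Figure D2:**
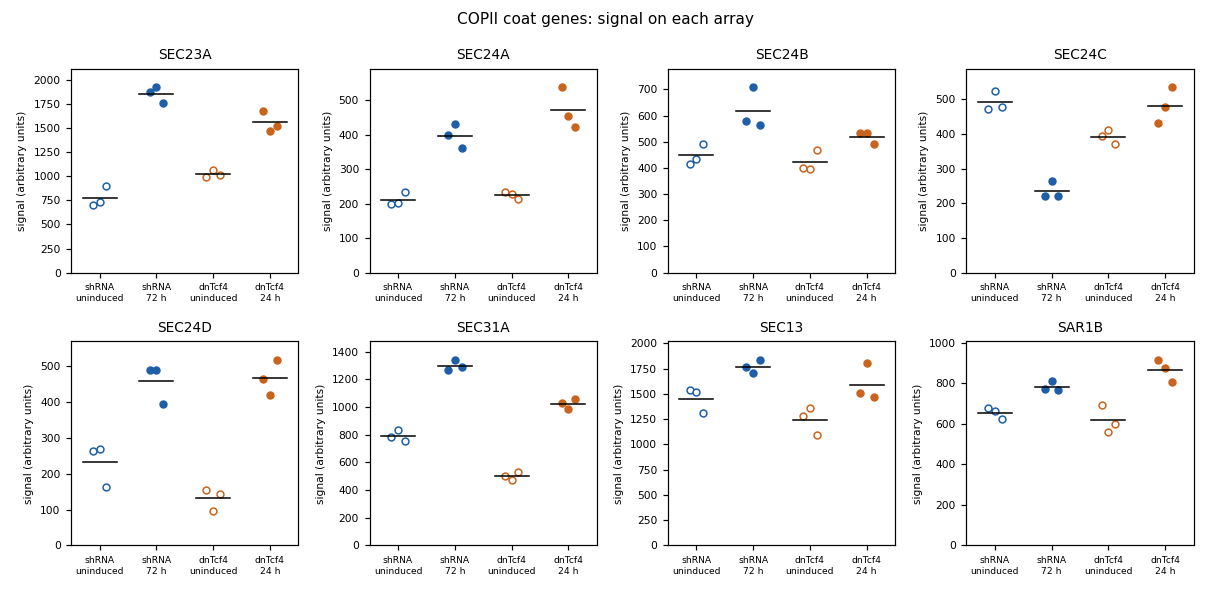
Signal (arbitrary units, linear axis from 0) of COPII coat genes on each of the 12 arrays, open circles uninduced and filled circles induced, blue for the shRNA line and orange for the dominant-negative Tcf4 line, lines at the group means. SEC23A, SEC24A, SEC24D and SEC31A rise without overlap in both lines, and SEC24C lies at 221 to 265 on the shRNA-induced arrays and at 371 or more on all others.

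COPI is a coat of 7 subunits that is recruited to Golgi membranes as one complex, and none of its genes fell. Of 7 tested, 5 rose in each induction (4 in each with arrays centred on their medians), and 4 of them (COPA, COPB1, COPB2 and COPG1) rose in both. COPG1 (217749_at), the γ1 subunit, read 365, 385 and 359 on uninduced and 512, 711 and 605 on induced shRNA arrays. Tcf4-line arrays gave 653, 635 and 628 and then 992, 1175 and 1104. COPG1 thus rose from a higher start in the Tcf4 line, by 0.71 ± 0.11 (adjusted p = 8.98e-05) with the shRNA and 0.77 ± 0.11 (adjusted p = 4.11e-05) with dominant-negative Tcf4. Its paralogue COPG2 (223457_at) did not pass, with changes of 0.14 ± 0.16 and 0.01 ± 0.16.

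COPA (208684_at), the α subunit, read 766, 765 and 676 uninduced and 1028, 952 and 1025 with the shRNA. With dominant-negative Tcf4 it went from 680, 629 and 704 to 1026, 1065 and 1054. The groups did not overlap in either line, and the rises were 0.45 ± 0.08 (adjusted p = 5.03e-04) and 0.65 ± 0.08 (adjusted p = 1.62e-05). A dimmer COPA probe set, 214336_s_at, had 0.05 with the shRNA (adjusted p = 0.936) and rose by 1.15 with dominant-negative Tcf4 (adjusted p = 0.0149). Another, 214337_at, passed in neither (-0.76, adjusted p = 0.197, and 0.32, adjusted p = 0.633). The β subunit COPB1 rose by 0.43 (adjusted p = 3.78e-04) and 0.45 (adjusted p = 2.50e-04), and the β′ subunit COPB2 by 0.36 (adjusted p = 0.00933) and 0.64 (adjusted p = 8.70e-05). Without induced array 2, the COPB2 rise with the shRNA was 0.28 and lost its call (adjusted p = 0.052). COPZ1, the ζ1 subunit, rose with the shRNA, by 0.50 (adjusted p = 6.67e-04), and had 0.17 (adjusted p = 0.18) with dominant-negative Tcf4. COPE, the ε subunit, showed the reverse pattern of calls, with 0.20 (adjusted p = 0.11) and a rise of 0.35 (adjusted p = 0.00743). The difference between the inductions passed for neither gene, and a second COPZ1 probe set had 0.14 with the shRNA (adjusted p = 0.441). ARCN1, the δ subunit, which the name rule does not take, rose by 0.58 (adjusted p = 1.51e-05) and 0.50 (adjusted p = 7.19e-05).

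**Figure D3:**
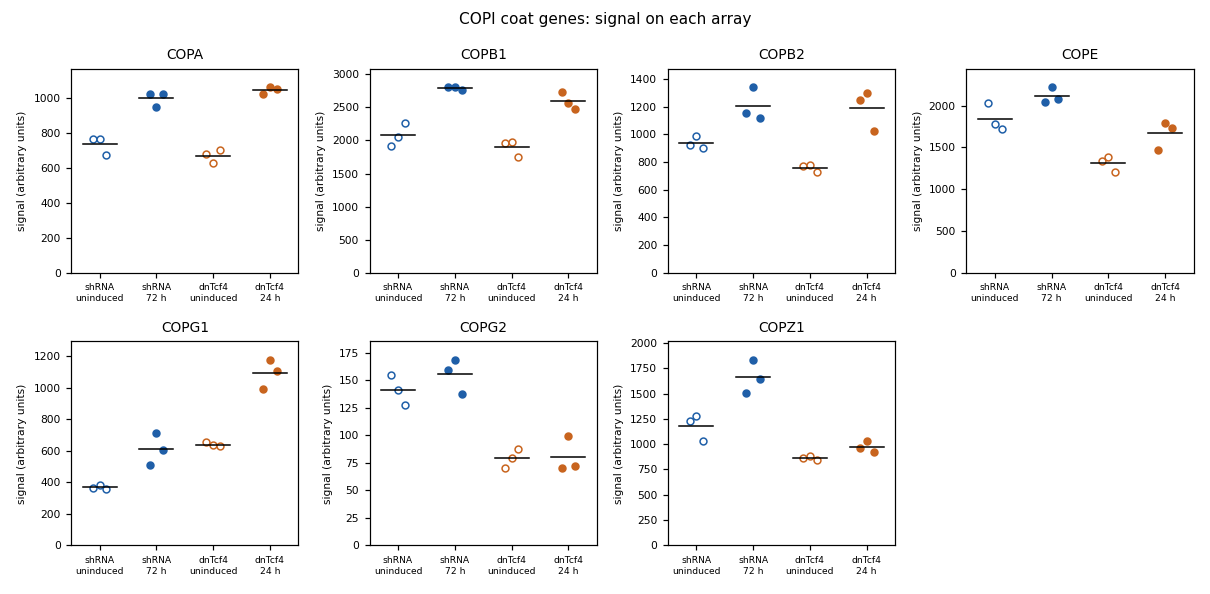
Signal (arbitrary units, linear axis from 0) of the 7 tested COPI coat genes on each of the 12 arrays, open circles uninduced and filled circles induced, blue for the shRNA line and orange for the dominant-negative Tcf4 line, lines at the group means. COPA, COPB1, COPB2 and COPG1 are higher on every induced array than on the uninduced arrays of the same line, and COPG2 overlaps in both lines.

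Because many coat genes rose in both inductions, the promoters of the gene group were read for elements that secretory genes are known to carry. RefSeq windows of 300 bases, from 250 before to 50 after the start of transcription, were found for 55 of the 62 genes, which are not the same 55 as those tested. The other 7 were SEC24D, SPCS1, TMED4, TMED9, SEC14L1P1, SEC1P and SEC24B-AS1. The unfolded protein response element (UPRE), searched as TGACGTGG on either strand, is a site that ATF6 and XBP1 can bind. It stood in 9 of these 55 windows (16.4%) and in 217 of all 27305 RefSeq windows (0.795%). On the brightest probe sets, 5 of the 9 genes (SEC23A, SEC24A, COPA, COPB1 and COPB2) rose in both inductions. The other 4, SEC16A, SEC16B, SEC62 and SRP19, passed in neither. Of the 55 genes tested, 17 rose in both, as did 1041 of all 12386 genes. A link between the element and the rise was not tested. Windows are shown for the 5 called genes with the largest change among those that hold a searched element. They hold the same 8 letters at different distances from the start. They are written 5′ to 3′ on the gene's strand with the element, or its reverse complement CCACGTCA, in capitals.
SEC23A: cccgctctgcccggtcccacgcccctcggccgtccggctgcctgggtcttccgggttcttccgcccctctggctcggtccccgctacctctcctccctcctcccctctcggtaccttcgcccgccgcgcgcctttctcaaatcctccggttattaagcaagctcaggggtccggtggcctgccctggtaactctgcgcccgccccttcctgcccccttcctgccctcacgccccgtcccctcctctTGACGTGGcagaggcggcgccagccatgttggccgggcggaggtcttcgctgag
SEC24A: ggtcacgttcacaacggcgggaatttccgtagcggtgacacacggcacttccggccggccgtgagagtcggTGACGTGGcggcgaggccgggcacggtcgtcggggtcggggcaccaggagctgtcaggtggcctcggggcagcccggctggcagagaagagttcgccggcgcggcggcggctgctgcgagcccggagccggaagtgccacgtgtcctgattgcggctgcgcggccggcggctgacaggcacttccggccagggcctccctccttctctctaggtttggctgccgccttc
COPA: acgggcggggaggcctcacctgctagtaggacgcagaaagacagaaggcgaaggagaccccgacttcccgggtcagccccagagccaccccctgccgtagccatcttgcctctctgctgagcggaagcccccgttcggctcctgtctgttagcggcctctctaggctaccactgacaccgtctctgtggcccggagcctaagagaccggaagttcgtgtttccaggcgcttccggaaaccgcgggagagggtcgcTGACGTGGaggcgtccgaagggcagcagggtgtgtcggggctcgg
COPB2: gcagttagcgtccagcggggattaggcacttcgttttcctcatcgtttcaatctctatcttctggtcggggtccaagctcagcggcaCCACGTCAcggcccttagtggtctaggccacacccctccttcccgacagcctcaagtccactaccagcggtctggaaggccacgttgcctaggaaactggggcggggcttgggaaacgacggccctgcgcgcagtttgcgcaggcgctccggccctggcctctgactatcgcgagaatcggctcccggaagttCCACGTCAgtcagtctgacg
COPB1: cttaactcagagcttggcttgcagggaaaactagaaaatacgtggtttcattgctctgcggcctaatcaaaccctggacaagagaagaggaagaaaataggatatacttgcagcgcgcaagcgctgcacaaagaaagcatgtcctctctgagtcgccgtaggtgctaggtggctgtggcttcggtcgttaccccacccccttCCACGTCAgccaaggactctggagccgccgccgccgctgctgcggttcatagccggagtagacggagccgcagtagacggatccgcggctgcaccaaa
On build GRCh38.p14 these windows are chr14:39103186-39103485 on the minus strand for SEC23A and chr5:134648535-134648834 on the plus strand for SEC24A. They are chr1:160343201-160343500 for COPA, chr3:139389631-139389930 for COPB2 and chr11:14499762-14500061 for COPB1, all on the minus strand. Counted from the start of transcription, the element begins at position -4 in SEC23A, -179 in SEC24A, 6 in COPA and -48 in COPB1, and COPB2 holds it at -163 and at 31. The ER stress element (CCAAT, 9 bases of any kind, CCACG) and its second form (ATTGG, 1 base, CCACG) were in none of the 55 windows, and in 0.0806% and 0.0549% of all windows. A TCF site (AACAAAG or ATCAAAG or TACAAAG or TTCAAAG, either strand) was in 4 of the 55 (7.27%), those of SSR2, SRP9, SEC16A and SEC16B, against 13.9% of all windows. A match is a description of the letters in the window only.

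Upstream of the coats, no called change of a translocation gene on its brightest probe set exceeded the 0.63 of SEC61A1. All 4 TRAP subunits rose with the shRNA, and 3 of them with dominant-negative Tcf4, but with arrays centred on their medians only SSR4 passed with the shRNA, and SSR2 and SSR3 with dominant-negative Tcf4. SSR4 (201004_at), the δ subunit, read 2393, 2552 and 2054 on uninduced shRNA arrays and 3131, 3640 and 3669 on induced ones. Its signals in the Tcf4 line were 1875, 1792 and 1741 and then 1942, 2194 and 1966. The shRNA groups stood well apart (0.58 ± 0.09, adjusted p = 9.94e-05), and those of the Tcf4 line were separated by a small gap (0.17 ± 0.09, adjusted p = 0.156). SSR1, SSR2 and SSR3, the α, β and γ subunits, rose by 0.21, 0.29 and 0.28 with the shRNA (adjusted p = 0.0166, 0.04 and 0.00937). With dominant-negative Tcf4 they rose by 0.18, 0.40 and 0.33 (adjusted p = 0.0282, 0.00669 and 0.0026). The 2 next brightest SSR3 probe sets passed in neither, and the dimmest rose by 0.68 with the shRNA (adjusted p = 0.00327). SSR1 lost its call without uninduced array 2 in the shRNA line (0.18) and without any array but induced array 3 in the Tcf4 line (0.16 to 0.20). Of its 5 other probe sets, 4 rose with dominant-negative Tcf4, by 0.31 to 0.47 (adjusted p = 8.48e-04 to 0.024), and 2 of these with the shRNA, by 0.28 and 0.53 (adjusted p = 0.032 and 0.00137). SSR2 lost its shRNA call without any one of 5 arrays (0.19 to 0.32), namely induced arrays 1 and 2 and uninduced arrays 1 and 3 of that line and uninduced array 3 of the Tcf4 line.

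In the channel itself, SEC61B, the β subunit, rose in both inductions, by 0.32 (adjusted p = 0.0289) and 0.31 (adjusted p = 0.0287). The first call was lost without induced array 1 or 3 or uninduced array 1 or 2 (0.28 to 0.29), and the second without induced array 1 or 2 or uninduced array 1 (0.22 to 0.28). SEC61A1, which forms the pore, rose with dominant-negative Tcf4 by 0.63 (adjusted p = 3.17e-04) and had 0.20 (adjusted p = 0.195) with the shRNA. The second pore form, SEC61A2, had -0.41 and 0.32, each ± 0.23, and passed in neither. SEC62 and SEC63, which help proteins enter after translation, had 0.33 and -0.05 with the shRNA and 0.30 and 0.10 with dominant-negative Tcf4, and passed in neither. A second SEC62 probe set, 208943_s_at, had 0.40 with the shRNA (adjusted p = 0.052) and rose by 0.44 with dominant-negative Tcf4 (adjusted p = 0.0301). The other SEC62 probe sets passed in neither.

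Of the 6 genes of the signal recognition particle, 1 fell with the shRNA and 1 rose with dominant-negative Tcf4. SRP54, the subunit that binds the signal sequence, rose with dominant-negative Tcf4 by 0.44 (adjusted p = 0.00269) and had 0.20 (adjusted p = 0.156) with the shRNA. SRP9 (201273_s_at), part of the domain that slows translation, read 3912, 4243 and 4306 on uninduced and 3717, 3112 and 3546 on induced shRNA arrays. The Tcf4 line gave 3920, 3783 and 3805 and then 3684, 3281 and 3528. Induced arrays were lower without overlap in both lines, but by little: -0.27 ± 0.08 (adjusted p = 0.0114) and -0.13 ± 0.08 (adjusted p = 0.188). Without shRNA-induced array 2 the fall was -0.19 and lost its call. SRP14, SRP19, SRP68 and SRP72 lay between -0.17 and 0.20 in both inductions and passed in neither. A dimmer SRP72 probe set, 208802_at, fell with the shRNA (-0.39, adjusted p = 0.0256), and the other SRP72 probe sets tested passed in neither.

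Subunits of signal peptidase moved in opposite directions. SPCS2 (201240_s_at), an accessory subunit, read 2114, 1987 and 1939 on uninduced and 1589, 1700 and 1533 on induced shRNA arrays. Arrays of the Tcf4 line gave 1918, 1807 and 1774 and then 2140, 2404 and 2199. It was lower on every induced array with the shRNA (-0.33 ± 0.07, adjusted p = 0.00278) and higher on every induced array with dominant-negative Tcf4 (0.29 ± 0.07, adjusted p = 0.00565). The second SPCS2 probe set, fitted by itself, had -0.20 (adjusted p = 0.141) and 0.42 (adjusted p = 0.00303).

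SPCS3 (221844_x_at), another accessory subunit, read 349, 340 and 419 and then 546, 576 and 442 with the shRNA. Signals in the Tcf4 line were 946, 916 and 893 before and 928, 690 and 680 after induction. It rose with the shRNA (0.49 ± 0.13, adjusted p = 0.00726), and the groups of the Tcf4 line overlapped (-0.28 ± 0.13, adjusted p = 0.112). The 2 other SPCS3 probe sets did not show the rise, with -0.06 (adjusted p = 0.776) and 0.19 (adjusted p = 0.527). SPCS1 (217927_at), a further accessory subunit, was the only tested gene here to fall with dominant-negative Tcf4, from 4078, 4224 and 3876 to 3373, 3674 and 3321. On the shRNA arrays SPCS1 read 5098, 4773 and 4246 uninduced and 5145, 4920 and 5188 induced. The first pair of groups did not overlap and the second did, with changes of -0.23 ± 0.07 (adjusted p = 0.0211) and 0.12 ± 0.07 (adjusted p = 0.258). The fall lost its call without induced array 1 or 3 or uninduced array 1 or 2 (-0.23 to -0.20). The catalytic subunits SEC11A and SEC11C passed in neither, with 0.03 and -0.15 with the shRNA and 0.04 and 0.10 with dominant-negative Tcf4.

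The p24 proteins (TMED genes) are cargo receptors that cycle between ER and Golgi in both kinds of vesicle. Of 8 tested, 2 rose and 1 fell with the shRNA, and 4 rose and none fell with dominant-negative Tcf4. TMED9 (205812_s_at) read 1036, 1070 and 873 on uninduced and 967, 1003 and 903 on induced shRNA arrays. In the Tcf4 line it read 1045, 1170 and 1185 and then 2051, 1582 and 1729. The shRNA groups overlapped (-0.05 ± 0.10, adjusted p = 0.77), while those of the Tcf4 line were far apart (0.65 ± 0.10, adjusted p = 1.33e-04). The second TMED9 probe set had -0.23 and 0.56 and passed in neither (adjusted p = 0.497 and 0.0726). TMED10 rose in both, by 0.30 (adjusted p = 0.0239) and 0.64 (adjusted p = 8.40e-05), and its shRNA call was lost without induced array 1 or 3 or uninduced array 3 (0.24 to 0.30). The second TMED10 probe set had -0.18 with the shRNA (adjusted p = 0.168) and rose by 0.38 (adjusted p = 0.00478) with dominant-negative Tcf4. The difference between the inductions passed on this second probe set (-0.56, adjusted p = 0.00869) but not on the brightest (-0.34, adjusted p = 0.109).

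TMED4 (224680_at) read 390, 414 and 330 and then 501, 476 and 515 with the shRNA. With dominant-negative Tcf4 it went from 664, 647 and 681 to 810, 826 and 798. Neither pair of groups overlapped, with rises of 0.40 ± 0.09 (adjusted p = 0.00305) and 0.29 ± 0.09 (adjusted p = 0.024). The second of these calls was lost without array 1 or 2 of either Tcf4-line group (0.27 to 0.29). The 2 next brightest TMED4 probe sets passed in neither induction: 1558487_a_at had -0.00 and -0.13, and 224676_at had -0.10 and 0.32. The dimmer 1558053_s_at rose with the shRNA, by 1.23 (adjusted p = 0.00705). TMED2 rose with dominant-negative Tcf4 by 0.21 (adjusted p = 0.0322), a call lost without array 1 or 2 of either Tcf4-line group (0.14 to 0.21), and had 0.10 with the shRNA. Its 2 other probe sets rose more with dominant-negative Tcf4, by 0.50 (204427_s_at, adjusted p = 0.00288) and 0.46 (204426_at, adjusted p = 0.00169), and 204426_at also passed for the difference between the inductions (-0.48, adjusted p = 0.0307). TMED8 (225343_at) fell with the shRNA, from 340, 362 and 449 to 274, 317 and 230. In the Tcf4 line TMED8 read 406, 409 and 394 and then 342, 348 and 268. Induced arrays were the lower ones in both lines, by -0.49 ± 0.14 (adjusted p = 0.0116) and -0.35 ± 0.14 (adjusted p = 0.0632). The fall with the shRNA lost its call without its array 3, uninduced or induced (-0.37). TMED1, TMED3 and TMED5 had 0.40, -0.11 and 0.17 with the shRNA and -0.06, -0.14 and 0.15 with dominant-negative Tcf4, and passed in neither.

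Among the remaining genes, SEC23IP, a SEC23-binding protein of ER exit sites, rose with the shRNA by 0.50 (adjusted p = 6.34e-04) and had 0.18 with dominant-negative Tcf4. SEC22B, an ER-to-Golgi SNARE, rose with dominant-negative Tcf4 by 0.61 (adjusted p = 0.0322) and had 0.12 with the shRNA. The SEC22B call was lost without induced array 1 or 2 or uninduced array 1 or 3 (0.44 to 0.60), and its symbol also stands beside pseudogenes on another probe set that was not used. SEC22A and SEC22C passed in neither, with -0.21 and -0.04 with the shRNA and 0.46 and 0.08 with dominant-negative Tcf4. SEC14L1, a lipid-binding protein that shares only part of its name with the coat genes, rose with dominant-negative Tcf4 by 0.53 (adjusted p = 0.00169) and had 0.20 with the shRNA. SEC14L5, SEC24B-AS1 and SEC61G-DT passed in neither, and each had a standard error of 0.25 or more.

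The 2 inductions were then compared directly, as the change with the shRNA minus the change with dominant-negative Tcf4. The 2 changes share no array, but the comparison sets 72 h of one construct against 24 h of the other, so duration and construct cannot be told apart. It passed for 8 of the 55 genes, 4 in each direction, where 17.6% of all genes passed, 9.03% upward and 8.61% downward. The share of these genes, 14.5%, is thus near the background. On the brightest probe sets, SEC24C had the widest gap, -1.36 ± 0.15 (adjusted p = 1.88e-05), from a fall with the shRNA and a small rise with dominant-negative Tcf4. SAR1A did not pass on its brightest probe set (-0.51, adjusted p = 0.101). Its 201542_at, fitted by itself, had a wider gap than SEC24C (-1.79, adjusted p = 7.48e-06), and 210790_s_at had -1.31 (adjusted p = 0.00284). SPCS2 differed by -0.62 ± 0.11 (adjusted p = 7.64e-04), also with opposite signs, and TMED9 by -0.70 ± 0.15 (adjusted p = 0.00363; -0.80 on its second probe set, adjusted p = 0.117). SEC23A rose more with the shRNA on its brightest probe set (0.65 ± 0.13, adjusted p = 0.00286). Its second probe set, 204344_s_at, rose by 0.89 and 0.74, and the difference did not pass there (0.15, adjusted p = 0.703).

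The difference for SPCS3, 0.77 ± 0.18 (adjusted p = 0.00819), rests on 1 of its 3 probe sets: the others gave -0.14 (adjusted p = 0.659) and -0.01 (adjusted p = 0.989). Close to the threshold were the differences of SEC24D (-0.84 ± 0.28, adjusted p = 0.0466), SSR4 (0.41 ± 0.13, adjusted p = 0.0366) and SPCS1 (0.35 ± 0.10, adjusted p = 0.0296). Leaving out single arrays ended these calls for 8 arrays with SEC24D (-0.89 to -0.63), 9 with SSR4 (0.32 to 0.43) and 8 with SPCS1 (0.28 to 0.36). For SEC24D the array left out could be any but induced array 2 and uninduced arrays 1 and 3 of the Tcf4 line and uninduced array 3 of the shRNA line. For SSR4 the exceptions were induced array 2 of the Tcf4 line and induced array 1 and uninduced array 2 of the shRNA line. For SPCS1 they were induced array 2 and uninduced array 3 of the Tcf4 line and induced array 2 and uninduced array 1 of the shRNA line. No COPI gene passed, nor did any gene of the signal recognition particle or the SEC61 channel.

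**Figure D4:**
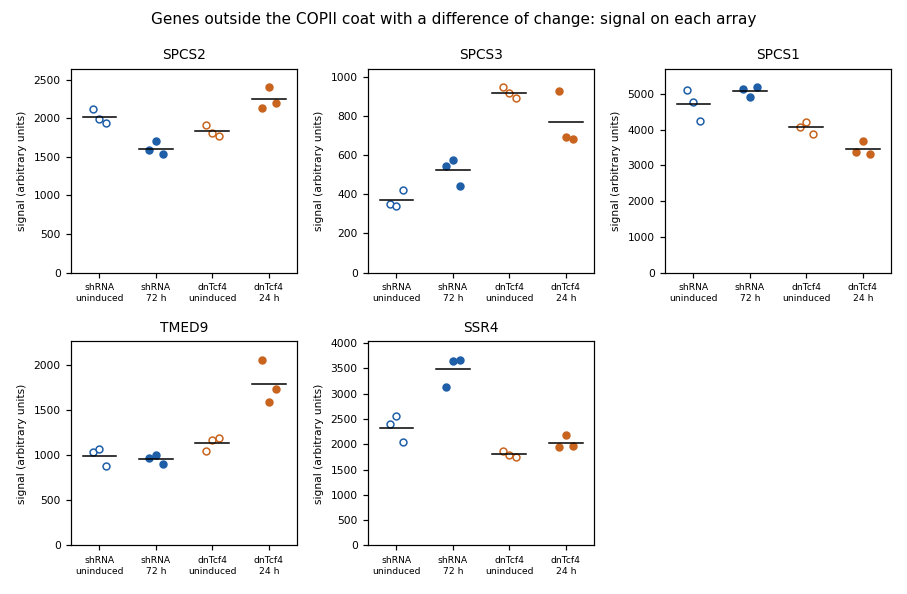
Signal (arbitrary units, linear axis from 0) on each of the 12 arrays for the 5 genes outside the COPII coat whose change differed between the inductions, open circles uninduced and filled circles induced, blue for the shRNA line and orange for the dominant-negative Tcf4 line, lines at the group means. SPCS2 falls with the shRNA and rises with dominant-negative Tcf4, and TMED9 is at 1582 to 2051 on the induced arrays of the Tcf4 line and at 1185 or less on all others.

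The uninduced lines also differed. These comparisons use the same uninduced arrays as the inductions, so a low start in one line enters both. Of the 55 genes, 6 were higher and 13 lower in the uninduced Tcf4 line than in the uninduced shRNA line, where 37.3% of all genes differed, 16.9% higher and 20.5% lower. The share of these genes, 34.5%, is near that background. The split moved with the scaling: with arrays centred on their medians 6 were higher and 5 lower, a setting that shifted the median of all genes from -0.03 to 0.09. The widest gap was in SPCS3, 1.32 ± 0.13 higher in the Tcf4 line (adjusted p = 7.25e-07), and its 2 other probe sets were also higher there, by 0.54 and 1.16. TMED4 (0.82 ± 0.09, adjusted p = 3.80e-06) and COPG1 (0.79 ± 0.11, adjusted p = 2.88e-05) were higher there too. The next brightest TMED4 probe sets did not pass there, with -0.20 (1558487_a_at, adjusted p = 0.148) and 0.33 (224676_at, adjusted p = 0.157). SAR1A did not pass on its brightest probe set (0.09, adjusted p = 0.681). Its 201542_at and 210790_s_at were higher there, by 1.20 (adjusted p = 2.27e-06) and 0.89 (adjusted p = 0.0012).

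COPG2 read 155, 141 and 128 on uninduced and 160, 168 and 137 on induced arrays of the shRNA line. In the Tcf4 line it read 70.3, 79.7 and 87.1 and then 70.2, 99.4 and 71.9. It was lower on all arrays of the Tcf4 line than on any of the shRNA line, with -0.84 ± 0.16 between the uninduced groups (adjusted p = 6.16e-04), while its paralogue COPG1 was higher there. SEC24D (-0.81 ± 0.20, adjusted p = 0.00373) and SEC31A (-0.67 ± 0.08, adjusted p = 6.85e-06), which rose in both inductions, started lower in the Tcf4 line. SSR3 (-0.62, adjusted p = 7.16e-06), COPE (-0.49, adjusted p = 4.89e-04) and COPZ1 (-0.45, adjusted p = 0.00146) were also lower there, though COPZ1 passed neither with arrays centred on their medians nor on its second probe set (-0.14, adjusted p = 0.449). The next brightest SSR3 probe sets did not pass there, with -0.33 (222412_s_at, adjusted p = 0.292) and -0.13 (217790_s_at, adjusted p = 0.877). The dimmest, 237817_at, was lower (-0.54, adjusted p = 0.014). Outside the COPI and TRAP complexes, SEC11C was higher there by 0.53 (adjusted p = 2.63e-04) and SEC23A by 0.40 (adjusted p = 0.00301). The second SEC23A probe set did not pass there (0.19, adjusted p = 0.351).

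**Figure D5:**
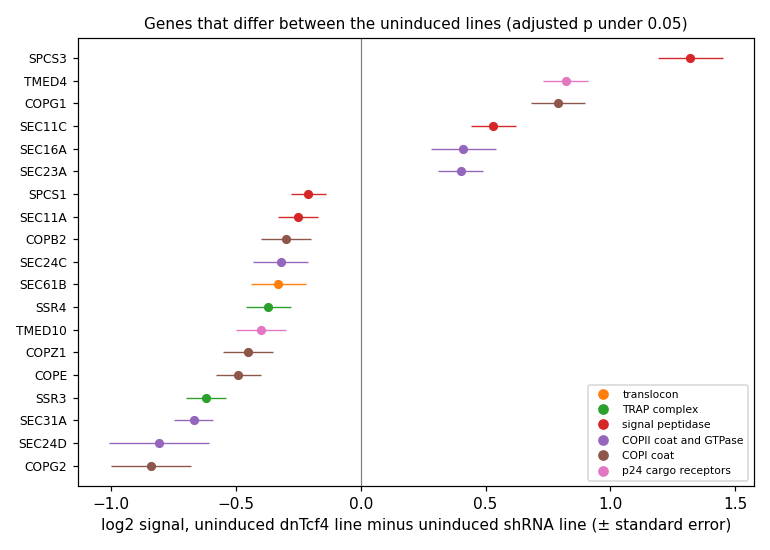
Log2 difference between the uninduced lines (dominant-negative Tcf4 line minus shRNA line, ± standard error) for the genes that differed at an adjusted p under 0.05. SPCS3, TMED4 and COPG1 are the highest, at 1.32, 0.82 and 0.79, and COPG2 and SEC24D the lowest, at -0.84 and -0.81.

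Other genes of the same route, and transcription factors known to act on secretory genes, which the name rule does not take, also rose more often than they fell. Of 50 tested, 7 of them transcription factors, 20 rose and 4 fell with the shRNA (40% and 8%), and 19 rose and 1 fell with dominant-negative Tcf4 (38% and 2%). Of the 55 genes of the rule, 38.2% and 47.3% rose. Over all 12386 genes, 16.6% rose and 17.4% fell with the shRNA, and 16.0% rose and 20.0% fell with dominant-negative Tcf4. These lists, like the rule, were chosen with earlier results of these data known. ARFGAP3, a GTPase-activating protein of the COPI cycle, rose by 1.16 (adjusted p = 6.76e-06) and 1.31 (adjusted p = 2.12e-06), and KDELR3, a receptor that returns ER proteins, by 0.82 (adjusted p = 1.68e-06) and 1.12 (adjusted p = 6.34e-08). Among 5 COPII regulators, 3 rose in each induction, and TFG, which organises ER exit sites, rose in both, by 0.67 (adjusted p = 7.38e-06) and 0.58 (adjusted p = 3.32e-05). Of the 8 targeting genes, 3 rose and 2 fell in the shRNA line, while 1 rose and 1 fell in the Tcf4 line. TRAM1, a translocon partner, rose in both, by 0.70 (adjusted p = 1.22e-05) and 0.29 (adjusted p = 0.0187). SRPRB, the β subunit of the receptor for the signal recognition particle, passed in opposite directions, at 0.26 (adjusted p = 0.0227) and -0.23 (adjusted p = 0.0446).

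Of 8 tested subunits of oligosaccharyltransferase, which adds sugar chains beside the channel, 3 rose in the shRNA line and 1 in the Tcf4 line. Of 6 COPI partners 3 rose in each induction, and of 6 SNAREs and tethers 2 rose and 1 fell with the shRNA while 3 rose with dominant-negative Tcf4. Of 10 cargo receptors tested, 3 rose and 1 fell with the shRNA, and 3 rose with dominant-negative Tcf4. The one that fell, SURF4, a cargo receptor of the ER, passed in opposite directions like SEC24C, at -0.41 (adjusted p = 0.00917) and 0.53 (adjusted p = 0.0014). Of 7 transcription factors known to act on secretory genes, 3 rose in the shRNA line and 5 in the Tcf4 line. CREB3 rose by 0.73 (adjusted p = 9.14e-05) and 1.19 (adjusted p = 6.60e-07), CREB3L1 by 0.82 (adjusted p = 0.00912) and 0.90 (adjusted p = 0.00462), and XBP1 by 0.49 (adjusted p = 3.87e-04) and 0.29 (adjusted p = 0.0164). CREB3L2 rose with dominant-negative Tcf4, by 0.65 (adjusted p = 3.26e-04), and had 0.22 with the shRNA. ATF6 had -0.11 with the shRNA (adjusted p = 0.752). It rose by 0.60 with dominant-negative Tcf4 (adjusted p = 0.044), though the groups overlapped. ATF6B and CREB3L4 passed in neither, with 0.53 and 0.28 with the shRNA and -0.52 and -0.35 with dominant-negative Tcf4.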

How the data were processed

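Total RNA of 12 samples was measured on 1-colour arrays. The deposited values are signal intensity per probe set on a linear scale, made by the authors with MAS5 and GCOS, per the submitters' processing notes. No version is named in the sources used here. The mean of the middle 96% of values was 100 on every array.

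After a floor at 1, values were put on the log2 scale. A probe set was named where the platform annotation gives 1 symbol (41097 of 54675; 1801 have several and 11777 none). Each gene was read from the one of its probe sets that had the highest mean log2 value, and genes with a mean below 3.35, the median over all probe sets, were left out. limma 3.58.1 (R 4.3.3) was fitted with 4 group means over all 12 arrays, with a variance trend and Benjamini-Hochberg adjustment over 12386 genes, called at an adjusted p under 0.05. The procedure was tested on simulated data. Replicate numbers did not pair the samples and were not used. Alternatives changed the scaling, floor, filter, probe set, variance trend and arrays.

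The genes, lists and motifs were chosen with earlier results of these data known. Array values are given for up to 6 genes with the largest called change in each direction of each induction, and up to 6 in each other comparison. Genes found only beside other symbols (TMED7, TMED7-TICAM2, SEC22B3P and SEC22B4P) were not analysed here. Promoter windows are from RefSeq.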

Additional observations from a re-analysis of the deposited data

Results flagged for a closer look

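The change in signal differed between the 2 inductions, by limma's test of the difference itself, for 8 of the genes. The difference (shRNA change minus dominant-negative Tcf4 change, log2) was -1.36 for SEC24C, -0.84 for SEC24D, -0.70 for TMED9 and -0.62 for SPCS2. It was 0.77 for SPCS3, 0.65 for SEC23A, 0.41 for SSR4 and 0.35 for SPCS1. These are values of the brightest probe sets, and SPCS3, TMED9 and SEC23A did not pass on their other probe sets. All 12 arrays enter each value, and time and construct differ together.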

How the results depend on the processing

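Of 25 calls with the shRNA, 12 held under every alternative that gave the gene a value, as did 14 of 27 with dominant-negative Tcf4, 3 of 8 differences and 10 of 19 between the uninduced lines. The fit of every probe set by itself does not enter these counts. Genes with no tested probe set left had no value without _x_at and _s_at probe sets. A call that held can thus fail on another probe set, as the SEC23A difference did (0.15, adjusted p = 0.703, limma). Leaving out 1 array at a time gave 16 to 21 genes higher and 3 to 4 lower with the shRNA, 18 to 27 higher and 0 to 2 lower with dominant-negative Tcf4, 2 to 4 and 3 to 6 differences, and 5 to 6 higher and 9 to 14 lower between the uninduced lines. The 1 gene lower with dominant-negative Tcf4, SPCS1, was lost without induced array 1 or 3 or uninduced array 1 or 2 of that line. The 4 positive differences fell to 2 without array 3 of either shRNA group, induced array 1 or 3 or uninduced array 1 or 2 of the Tcf4 line.

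With arrays centred on their medians, 12 genes were higher with the shRNA, and 17 higher and 0 lower with dominant-negative Tcf4, 2 had a positive difference and 5 were lower in the uninduced Tcf4 line. Without a filter, or without the variance trend, 0 were lower with dominant-negative Tcf4 and 2 had a positive difference. With the filter at the 75th percentile, or with only the arrays compared, 2 were lower with dominant-negative Tcf4. With every probe set by itself, 7 genes had a negative difference and 10 were higher in the uninduced Tcf4 line. Without probe sets ending in _x_at or _s_at, the SPCS3 difference was -0.01 (adjusted p = 0.987, limma), from another probe set. Of 597 values recomputed for 29 changes of named genes, 571 kept direction and call, 25 lost the call and 1, that of SPCS3, reversed.

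The replicate numbers did not pair the samples: deviations of same-numbered arrays correlated at -0.08 to 0.04, and 1 of 6 arrays correlated best with its own number. With the replicate block, 20 genes were higher and 4 lower in the shRNA line, 22 and 1 in the Tcf4 line, 2 and 4 in the difference, and 6 and 13 between the uninduced lines. The 3 arrays per group limit the precision, and 7 of the 62 genes were too dim to test.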
